A study of Homo sapiens with 4 samples.

Results

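The genes described here are 42 genes of DNA replication and of the passage from G1 to S phase, measured in SUIT2 cells with and without the drug fb-PMT. They were listed by gene symbol for their roles in replication, at a time when earlier results of these data were known. Each of the 42 symbols matched 1 of the 21448 transcript clusters tested, a transcript cluster being the probe set that summarises 1 gene locus. The control group was SUIT2 cells exposed to phosphate-buffered saline for 24 h (n = 2 arrays), and the treated group was SUIT2 cells exposed to 30 µM fb-PMT for 24 h (n = 2 arrays). All 4 arrays held total RNA of the same unmodified cell line. fb-PMT is known as a polyethylene glycol conjugate of a thyroid hormone analog that was designed to bind the hormone's receptor site on an alpha-v integrin, and the study asked about its effect on genes essential to mitochondria in cancer. Separate cultures are not stated for the replicates, and the p-values then reflect the spread between arrays alone, which may be technical.

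The labels call the cells glioblastoma, while SUIT-2 is known as a pancreatic carcinoma line. Of 5 epithelial markers, KRT8, KRT18, KRT19 and EPCAM had log2 values of 15.09 to 16.45 on all arrays, and CDH1 was not above the negative controls on any. None of 4 glial markers (GFAP, OLIG2, S100B and SOX10) and none of 3 immune and stromal markers (PTPRC, COL1A1 and PECAM1) was above the negative controls on any array. The negative controls are probe sets with no target, and a gene counts as above them on an array where its value exceeds their 95th percentile there, which was 7.15 to 7.38. The arrays' medians over all transcript clusters were 6.27 to 6.28, replicates correlated with r = 0.995 and 0.996 across transcript clusters, and arrays of different groups with r = 0.992 to 0.994.

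Before a cell copies its DNA, the origin recognition complex, CDC6 and CDT1 load the ring-shaped MCM helicase onto origins in G1, and geminin later blocks CDT1 so that no origin is loaded again. Cyclin E and its kinase partner, together with CDC7, start S phase by letting CDC45 and the GINS complex join the ring. Polymerases, the clamp PCNA and its loader then extend the new strands, while histone chaperones rebuild chromatin behind the fork. Many of these genes are known targets of E2F transcription factors, which the retinoblastoma protein holds back until late G1, and their transcript levels are widely read as a sign of how many cells in a culture are cycling. In bulk RNA, fewer cells in S phase and less RNA per cell cannot be told apart.

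No replication gene passed the test. In limma's test with Benjamini-Hochberg adjustment over all transcript clusters, 0 of the 42 genes were higher and 0 lower at an adjusted p under 0.05, against 0.0979% of all transcript clusters called higher and 0% called lower. The smallest adjusted p among them was that of TIPIN (0.384), and 0 were called with an intensity trend in the variance (background 1.37% higher and 0.513% lower). At an unadjusted p under 0.05, 1 gene was lower (TIPIN) and 0 were higher, where 5.49% and 5.7% of all transcript clusters were. The single lower gene is 2.38% of the 42.

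The differences were small, and their intervals bound them. The log2 differences between the group means (fb-PMT minus control) ran from -0.45 for TIPIN to 0.27 for E2F1, and limma's 95% intervals, unadjusted for the number of genes, lay between -0.83 and 0.73 for all 42 genes. A 2-fold change in either direction thus lay outside the interval of each of the 42, as it did for 94.5% of the 8696 transcript clusters above the negative controls on all 4 arrays. The lowest bound corresponds to 1.78-fold lower (BLM) and the highest to 1.66-fold higher (CDT1). RMA can shrink differences, and normalization between arrays removes a shift shared by most genes, so these bounds hold for the normalised values.

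**Figure D1:**
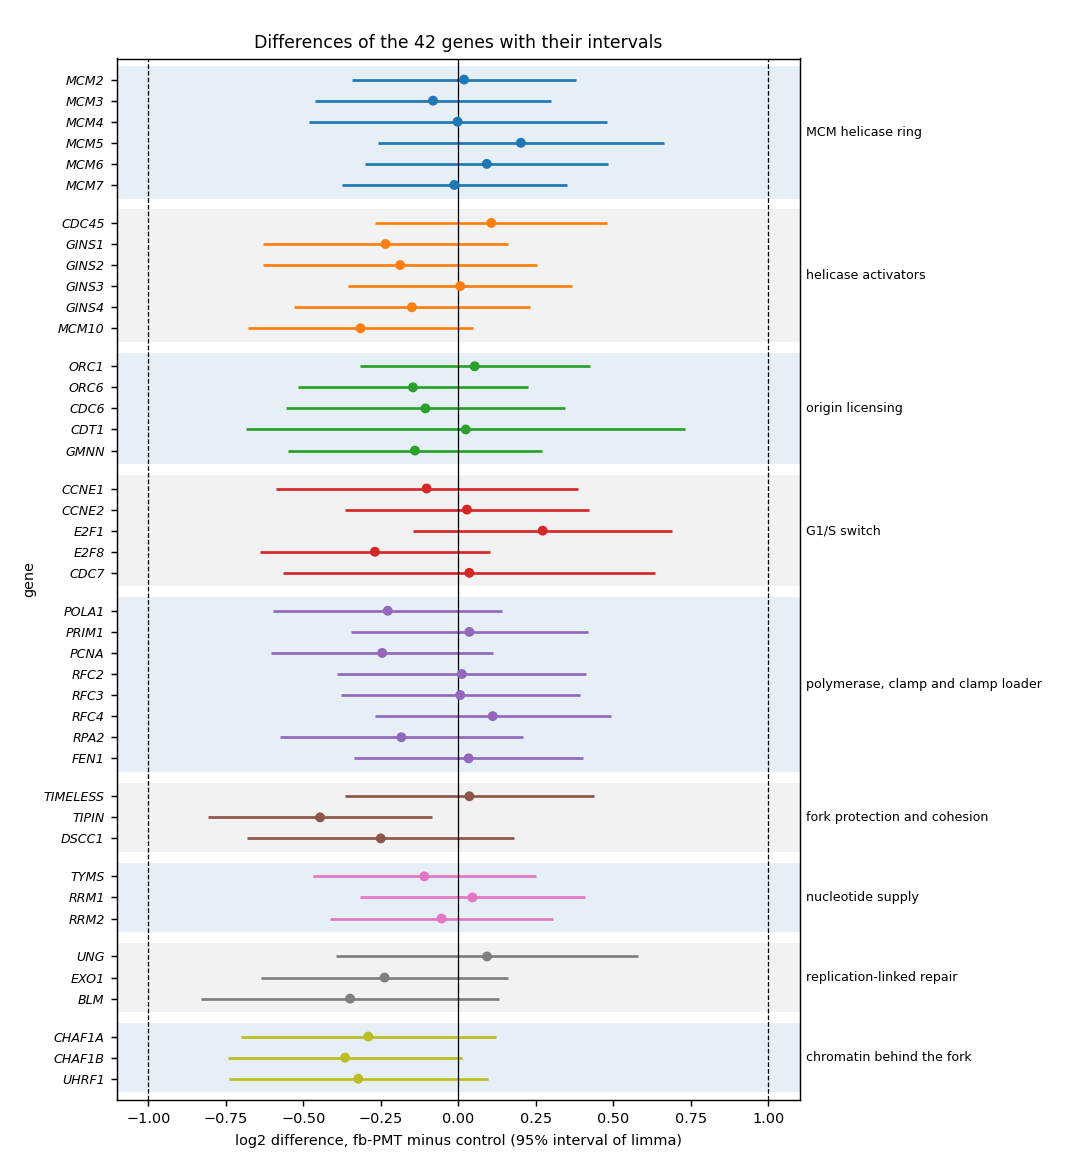
Each point is the log2 difference of 1 gene between the means of 2 fb-PMT and 2 control arrays, and each bar its 95% interval from limma; colours and bands mark the roles of the genes and dashed lines mark a 2-fold change (1 on the log2 scale) in either direction. No bar reaches a dashed line, and TIPIN is the gene whose bar lies wholly below 0.

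The direction of the differences was mixed, with more genes below their controls than above. Of the 42 genes 24 were lower and 18 higher (57.1% lower, against 52.7% of all transcript clusters), and the median log2 difference was -0.068, against -0.017 over all transcript clusters and 0.0060 over those above the negative controls on all arrays. Both fb-PMT arrays lay below both control arrays for 16 genes (38.1%, background 22.3%) and above both for 2 genes, CDC45 and E2F1 (4.76%, background 20.2%). In the 4 pairings of a treated with a control array, the median over the 42 genes was -0.061, -0.15, -0.048 and -0.055. With renewed quantile normalization the split became 31 lower and 11 higher (73.8% lower, against 52% of all transcript clusters), and the median -0.10. These are descriptions of 2 arrays a group, where exchanging the labels cannot give a two-sided exact p below 0.333. The genes were listed with earlier results of these data known, which the shares do not account for.

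**Figure D2:**
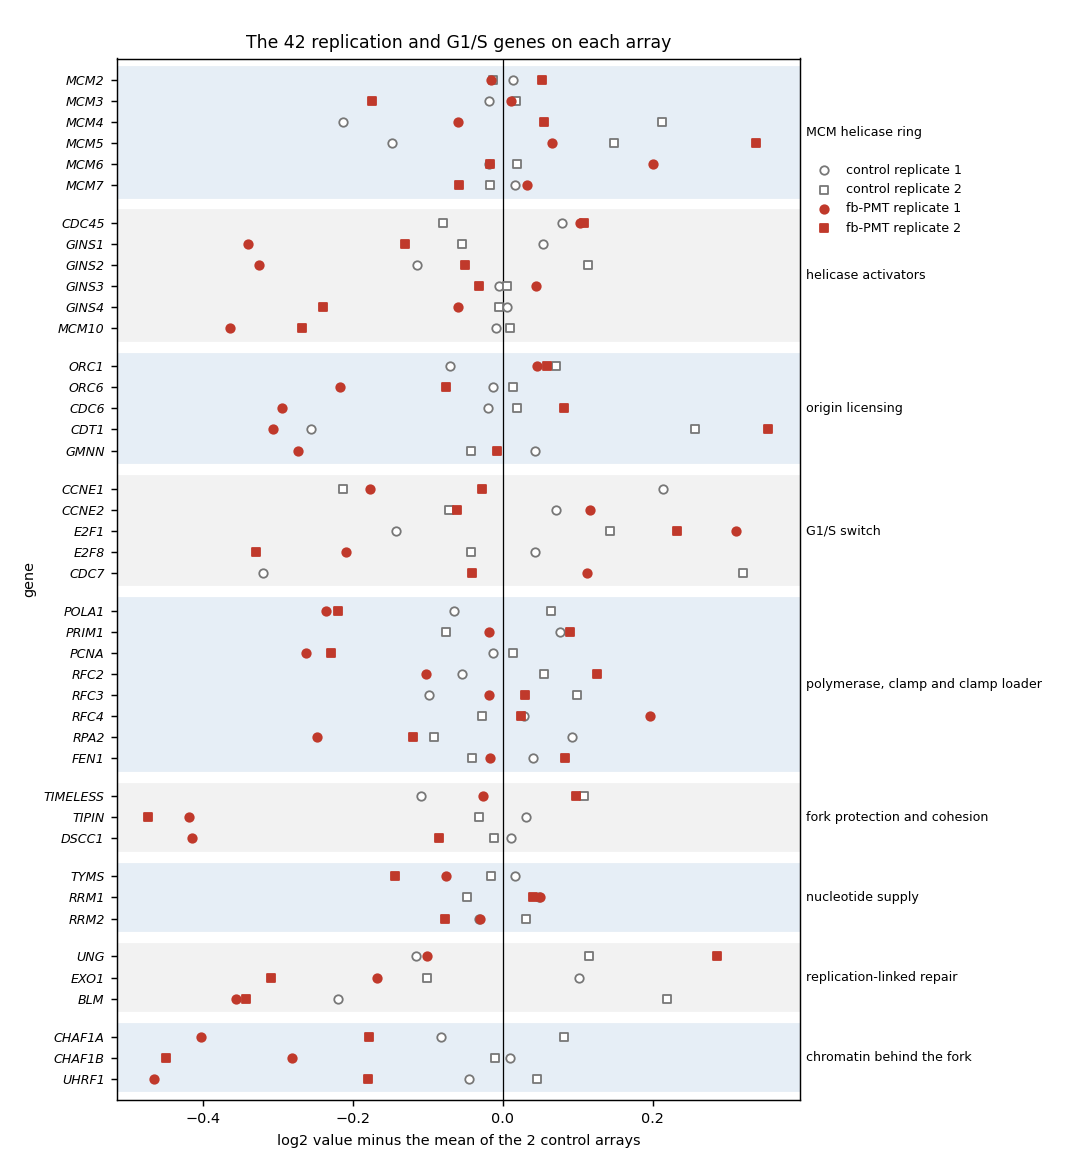
Each row is 1 gene, grouped by role, and each symbol is 1 array's log2 value minus the mean of the 2 control arrays of that gene (open grey for control, filled red for fb-PMT; circles for replicate 1 and squares for replicate 2). For the 6 MCM ring genes the red and grey symbols interleave, while for the 3 genes of chromatin assembly at the bottom both red symbols lie left of both grey ones.

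The promoters of 6 of these genes are shown because they carry the motif of E2F factors. The genes lie at different places in the range of differences: E2F1 at its top, MCM6 at 0.09, PCNA, POLA1 and UHRF1 lower, and TIPIN at its bottom. Sequences are RefSeq promoter windows of GRCh38.p14, each a stretch of 120 bases before the start of transcription, written 5′ to 3′ on the strand of the gene. Capitals mark the 8-base E2F motifs searched, TTTGGCGC, TTTCCCGC, TTTGCCGC and TTTCGCGC, on either strand; where capitals run on past 8 bases, matches on the 2 strands overlap.
E2F1 (chr20:33686386-33686505, minus strand): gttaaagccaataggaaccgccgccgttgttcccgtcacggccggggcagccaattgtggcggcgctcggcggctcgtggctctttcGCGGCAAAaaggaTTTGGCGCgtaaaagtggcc
MCM6 (chr2:135876514-135876633, minus strand): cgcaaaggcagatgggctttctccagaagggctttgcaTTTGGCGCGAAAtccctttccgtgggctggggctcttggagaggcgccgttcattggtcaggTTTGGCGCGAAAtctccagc
PCNA (chr20:5126623-5126742, minus strand): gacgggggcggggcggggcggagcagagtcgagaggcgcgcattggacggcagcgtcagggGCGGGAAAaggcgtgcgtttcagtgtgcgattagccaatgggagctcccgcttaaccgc
POLA1 (chrX:24693718-24693837, plus strand): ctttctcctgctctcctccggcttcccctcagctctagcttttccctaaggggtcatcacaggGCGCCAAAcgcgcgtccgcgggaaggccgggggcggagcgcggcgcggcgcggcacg
UHRF1 (chr19:4909381-4909500, plus strand): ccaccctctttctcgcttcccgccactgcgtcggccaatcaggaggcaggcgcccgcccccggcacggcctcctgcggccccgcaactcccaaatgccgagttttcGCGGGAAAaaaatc
TIPIN (chr15:66356686-66356805, minus strand): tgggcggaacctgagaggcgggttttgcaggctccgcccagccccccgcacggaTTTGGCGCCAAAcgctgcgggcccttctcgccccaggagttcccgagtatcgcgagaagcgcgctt
The stretches of E2F1, PCNA, TIPIN and UHRF1 end at the base before the start, that of POLA1 ends 81 bases and that of MCM6 71 bases before it. PCNA and TIPIN have 2 listed starts each and UHRF1 has 3. The 1 shown is the first whose stretch held the motif, and the other starts may lack it. The first base of the motif lies 33 and 20 bases before the start in E2F1, 59 in PCNA, 137 in POLA1 and 14 in UHRF1. In TIPIN the overlapping matches begin 66 and 62 bases before the start. MCM6 holds the same letters at both of its places, with matches that begin 152, 148, 90 and 86 bases before the start.

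Of the 42 genes, 35 had at least 1 RefSeq window (250 bases before to 50 after the start), with 48 windows in all. The motif was found in 21 of the 48 windows (43.8%), against 3.31% of all 35116 promoter windows and 5.01% of the 11455 windows whose GC content lay between the quartiles of the members'. The window share for a list of 30 mitosis genes was 12.9% (4 of 31 windows). Among the 20 genes with the motif in some window, the median log2 difference was -0.094, with 7 of the 20 below both controls and 1 above. Among the 15 with a window but no match, the median was 0.011, with 5 of the 15 below and 1 above. Over all transcript clusters 22.3% lay below both controls and 20.2% above. The 2 sets were not compared by a test. The differences ran from -0.45 to 0.27 with the motif and from -0.37 to 0.11 without it, so the 2 sets overlapped widely. A match describes letters in a window, not a bound site. MCM4, MCM5, GINS4, CCNE2, E2F8, RPA2 and DSCC1 had no listed window.

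The MCM ring, the motor of the replicative helicase, differed little between the groups. Its 6 subunits had a median log2 difference of 0.0078, a median absolute difference of 0.050, ranged from -0.08 (MCM3) to 0.20 (MCM5), and the groups overlapped for all 6. MCM2 read 9.73 and 9.70 in controls and 9.70 and 9.77 with fb-PMT (difference 0.02, SE 0.15, adjusted p = 0.976). MCM7 read 13.17 and 13.14 in controls against 13.19 and 13.10 with fb-PMT (difference -0.01, 95% interval -0.38 to 0.35). For both genes the treated values stood on either side of the controls.

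MCM5 was the subunit with the largest difference, at 11.27 and 11.56 in controls and 11.48 and 11.75 with fb-PMT (0.20, SE 0.19, adjusted p = 0.733). Its replicates differed from each other by more than its group means did. MCM6 read 10.33 and 10.37 in controls, and 10.55 and 10.33 with fb-PMT, so that replicate 1 was the highest array and replicate 2 lay at the lower control (difference 0.09, adjusted p = 0.873). MCM4, another ring subunit, read 12.83 and 13.26 in controls and lay between them with fb-PMT.

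The factors that turn the ring into a working helicase are CDC45, the 4 GINS subunits and MCM10. Of these 6 genes 4 were lower (66.7%, against 52.7% of all transcript clusters) and 2 higher, with a median of -0.17. GINS1, a GINS subunit, read 10.60 and 10.49 in controls and 10.20 and 10.41 with fb-PMT (-0.23, SE 0.16, adjusted p = 0.626), both treated arrays lying below the controls, and the difference was -0.13 without fb-PMT replicate 1. GINS4 was also below on both arrays (-0.15), GINS2 overlapped (-0.19) and GINS3 stood at 0.01. CDC45, which joins MCM and GINS in the active helicase, was above both controls on both treated arrays by a small margin, at 10.55 and 10.39 against 10.57 and 10.58 (0.11, adjusted p = 0.838). The subunits of this complex therefore did not differ in 1 direction.

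MCM10, which binds the helicase as it is activated, was the 1 gene of the 42 not above the negative controls on all arrays. It read 7.25 and 7.27 in controls, of which replicate 2 alone was above the negative controls, and 6.90 and 6.99 with fb-PMT, both below them. The measured difference was -0.32 (SE 0.15, adjusted p = 0.503), and no fold is given, since the control mean rests on an array that was not above background. The other 41 genes were above them on all 4 arrays.

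For the licensing genes CDT1, GMNN and CDC6, the replicates of at least 1 group differed by more than the group means. CDT1, the loading factor that is destroyed in S phase, read 8.10 and 8.61 in controls and 8.05 and 8.71 with fb-PMT (0.02, SE 0.29, adjusted p = 0.985), with a low replicate 1 and a high replicate 2 in both groups. GMNN, which encodes the CDT1 inhibitor geminin, read 11.76 and 11.68 against 11.45 and 11.71 (-0.14, SE 0.17, adjusted p = 0.799), replicate 1 of fb-PMT standing below the other 3 arrays. CDC6, the loading ATPase, had the same form, at 12.16 and 12.20 in controls and 11.88 and 12.26 with fb-PMT.

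ORC6, a subunit of the origin recognition complex, read 8.54 and 8.57 in controls and 8.34 and 8.48 with fb-PMT (-0.15, SE 0.15, adjusted p = 0.763), the 1 licensing gene whose groups did not overlap. ORC1, the largest subunit of that complex, stood at 0.05 with overlapping groups. The median of the 5 licensing genes was -0.11.

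At the G1/S switch the 2 E2F genes differed in opposite directions and both cyclin E genes overlapped. E2F1, an activating E2F that drives S-phase genes, read 9.18 and 9.47 in controls and 9.63 and 9.56 with fb-PMT (0.27, SE 0.17, adjusted p = 0.596), and the difference was 0.13 without control replicate 1 and 0.41 without control replicate 2. E2F8, an atypical E2F that represses the same promoters, read 10.81 and 10.72 in controls and 10.56 and 10.44 with fb-PMT (-0.27, SE 0.15, adjusted p = 0.563). The treated arrays of E2F1 lay above both controls and those of E2F8 below both, and neither passed the test.

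Cyclin E activates the kinase CDK2 at the end of G1. CCNE1 read 9.48 and 9.05 in controls and 9.09 and 9.24 with fb-PMT, between the controls (-0.10, SE 0.20, adjusted p = 0.888). CCNE2 read 10.14 and 9.99 against 10.18 and 10.00 (0.03, SE 0.16, adjusted p = 0.966). The kinase gene CDC7, which acts on the loaded MCM ring, also lay between its controls, which read 9.30 and 9.94. Leaving out control replicate 1 turned the difference of CCNE1 to 0.11.

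Of the 8 polymerase, clamp and clamp loader genes, 5 were higher and 3 lower (37.5% lower, against 52.7% of all transcript clusters), with a median of 0.0086. The 3 lower genes, POLA1, PCNA and RPA2, had both treated arrays below both controls (37.5%, background 22.3%). The 5 higher ones (PRIM1, RFC2, RFC3, RFC4 and FEN1) overlapped and stood at 0.01 to 0.11. PCNA, the sliding clamp that tethers polymerases to DNA, read 13.38 and 13.40 in controls and 13.13 and 13.16 with fb-PMT (-0.25, SE 0.14, adjusted p = 0.581). Its replicates agreed closely, and leaving out any 1 array kept the difference between -0.26 and -0.23.

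POLA1, the catalytic subunit of the polymerase that starts each new strand, read 9.64 and 9.77 in controls and 9.47 and 9.49 with fb-PMT (-0.23, SE 0.15, adjusted p = 0.615). PRIM1, the primase that works in the same complex, stood at 0.04. RPA2, a subunit of the protein that coats single-stranded DNA, stood at -0.18. The clamp loader subunits RFC2 and RFC3 stood at 0.01 each and RFC4 at 0.11, while the 2 remaining subunits, read from the wider lists and named after their values were seen, were at -0.12 (RFC1, both treated arrays below both controls) and -0.11 (RFC5, overlapping). FEN1, the flap nuclease that trims Okazaki fragments, stood at 0.03.

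Fork protection held the gene with the largest difference of the 42. TIPIN, which encodes the partner of TIMELESS in the complex that steadies stalled forks, read 9.61 and 9.55 in controls and 9.16 and 9.10 with fb-PMT. Its log2 difference was -0.45 ( SE 0.15, unadjusted p = 0.0237, adjusted p = 0.384) and stayed between -0.48 and -0.41 when any 1 array was left out. The gap between its groups exceeded the gap between replicates in either group. The negative-control filter kept the 9199 transcript clusters above the negative controls on both arrays of at least 1 group. A cluster can thus pass it through 1 group alone. With this filter the adjusted p of TIPIN was 0.0954, the lowest for any of the 42 under any setting tried.

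TIMELESS itself overlapped between groups and stood at 0.04 (SE 0.16, adjusted p = 0.959), so the 2 partners were not lower together. DSCC1, part of a clamp loader that links replication to sister chromatid cohesion, read 9.12 and 9.10 in controls and 8.70 and 9.03 with fb-PMT (-0.25, SE 0.17, adjusted p = 0.634). Most of that difference came from replicate 1, and it was -0.09 without it.

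Genes of deoxynucleotide supply differed little. TYMS, the thymidylate synthase that fluorouracil targets, read 14.10 and 14.07 in controls and 14.01 and 13.94 with fb-PMT (-0.11, SE 0.15, adjusted p = 0.824). RRM2, the small subunit of ribonucleotide reductase and the target of hydroxyurea, read 14.15 and 14.21 against 14.15 and 14.10 (-0.05, SE 0.15, adjusted p = 0.924). RRM1, the large subunit, stood at 0.05. Only the groups of TYMS did not overlap among these 3.

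Of the 3 genes of replication-linked repair, BLM and EXO1 lay below both controls on both treated arrays (66.7%, background 22.3%). UNG, which removes uracil from DNA, overlapped (0.09). BLM, the helicase lost in Bloom syndrome, read 8.38 and 8.82 in controls and 8.24 and 8.26 with fb-PMT (-0.35, SE 0.19, adjusted p = 0.56). Its 2 control arrays differed by more than the group means, and the difference was -0.13 without control replicate 2. EXO1, an exonuclease of mismatch repair and fork processing, read 12.17 and 11.97 against 11.90 and 11.76 (-0.24, SE 0.16, adjusted p = 0.625), with a difference of -0.14 without control replicate 1.

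In the role group of chromatin assembly behind the fork, all 3 members were below both controls on both treated arrays (background 22.3%), with a median of -0.32. RBBP4, the third subunit of the same histone chaperone, is in the wider list of replication chromatin genes and stood above both controls, at 0.09. CHAF1B and CHAF1A encode the middle and large subunits of the chaperone that places histones on new DNA. CHAF1B read 10.97 and 10.95 in controls and 10.68 and 10.51 with fb-PMT (-0.37, SE 0.15, unadjusted p = 0.0556, adjusted p = 0.458). CHAF1A stood at -0.29 (SE 0.17, adjusted p = 0.57). UHRF1, which brings the maintenance DNA methyltransferase to freshly copied DNA, read 10.64 and 10.73 in controls and 10.22 and 10.50 with fb-PMT (-0.32, SE 0.17, adjusted p = 0.543), and the difference was -0.18 without fb-PMT replicate 1. None of the 3 passed. With an intensity trend CHAF1B, UHRF1, PCNA and TIPIN had an unadjusted p under 0.05 and none of them an adjusted one. That setting called 0.513% of all transcript clusters lower at an adjusted p under 0.05, against 0% in the main fit. Its share at the unadjusted threshold is not given here.

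**Figure D3:**
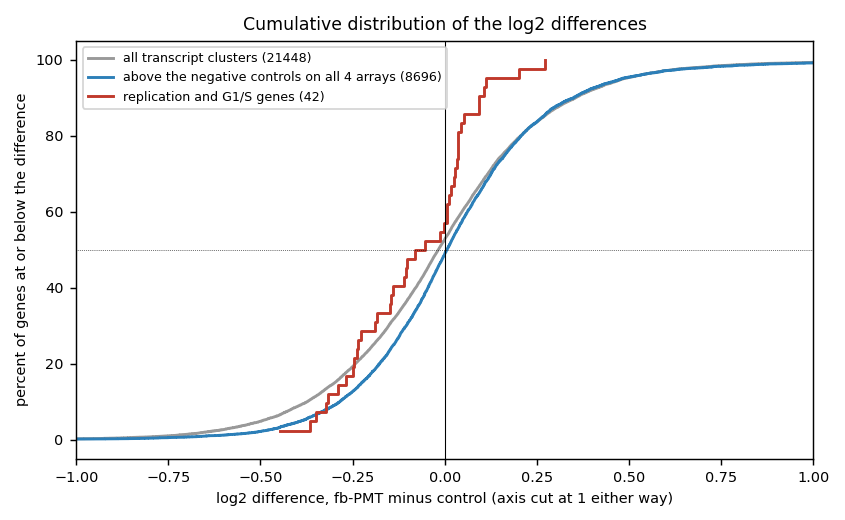
Curves give the percent of genes at or below each log2 difference (fb-PMT minus control), for all 21448 transcript clusters in grey, the 8696 above the negative controls on all 4 arrays in blue and the 42 replication and G1/S genes in red. The red curve lies within -0.45 and 0.27, crosses 50% at about the members' median of -0.068 and rises steeply just right of 0.

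Other genes of the pathway were read from 7 lists of 86 further genes, of which 83 were measured. Of these, TICRR, RECQL4, POLD1, LIG1, CHTF18, ATR, E2F2 and E2F3 were not above the negative controls on any array. They are kept in the counts of these lists, ATR and E2F3 among the genes below both controls. None passed the adjusted threshold of limma's test in either direction, with or without an intensity trend, while 5 were lower (background 5.49%) and 3 higher (background 5.7%) at an unadjusted p under 0.05. Of the 83 genes 47 were lower and 36 higher, where 52.7% of all transcript clusters were lower, and their median was -0.029. On both treated arrays 26 lay below both controls (31.3%, background 22.3%) and 20 above (24.1%, background 20.2%).

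Among 14 further origin and licensing genes, 11 were lower (78.6%, against 52.7% of all transcript clusters). They were led by DBF4B, an activator of CDC7, and MCM9, a relative of the ring subunits (-0.28, adjusted p = 0.535). DBF4B read 9.20 and 9.17 in controls and 8.87 and 8.74 with fb-PMT (-0.38, adjusted p = 0.446). Among 22 further polymerase, clamp loader and ligase genes 9 were lower and 13 higher (40.9% lower, against 52.7% of all transcript clusters). The higher genes include POLD1, LIG1 and CHTF18, the 3 of this list not above the negative controls on any array. DNA2, a nuclease that trims long flaps, read 7.73 and 8.38 in controls and 7.48 and 7.35 with fb-PMT (-0.64, SE 0.24, adjusted p = 0.431). Its control arrays differed by at least as much as the group means. On fb-PMT replicate 2 it lay just above the negative controls' 95th percentile of 7.29. RNASEH2B, a subunit of the enzyme that removes ribonucleotides from DNA, stood at -0.59. RNASEH2B read 10.69 and 10.45 in controls and 9.98 on both treated arrays (SE 0.16, adjusted p = 0.332), the smallest adjusted p in these 7 lists. POLA2, the partner subunit of POLA1, was at 0.48 (adjusted p = 0.446), opposite in sign to POLA1, and is named after its value was seen.

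Of 10 measured checkpoint genes 8 were lower (80%, against 52.7% of all transcript clusters). CDC25A, the phosphatase that activates CDK2, stood at -0.45 with overlapping groups and ETAA1, an activator of the kinase ATR, at -0.22. In the list of other retinoblastoma and E2F genes, CDKN1B, the CDK inhibitor p27, read 10.54 and 10.67 in controls and 10.95 and 11.44 with fb-PMT (0.59, SE 0.21, adjusted p = 0.408). E2F5, a repressive E2F, stood at -0.57 (adjusted p = 0.445). For both genes the groups did not overlap, and the median over all 15 genes of the list was -0.0055.

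Among 9 measured nucleotide genes, DCK, a salvage kinase that also activates gemcitabine, read 9.53 and 9.69 in controls and 10.22 and 10.06 with fb-PMT (0.53, SE 0.16, adjusted p = 0.365). CAD, which starts pyrimidine synthesis, was at -0.54 (SE 0.17, adjusted p = 0.378). The 2 enzymes differed in opposite directions, and the list had 5 genes higher and 4 lower. MKI67, the proliferation marker Ki-67, read 14.05 and 14.09 in controls and 13.99 and 13.75 with fb-PMT (-0.20, SE 0.16, adjusted p = 0.68), and SLBP, which binds histone mRNA, was at -0.19 with overlapping groups. Their list of 8 replication chromatin genes had 4 lower and 4 higher, with a median of 0.013. In it 3 genes (37.5%, background 20.2%) stood above both controls: ASF1A (0.13), ASF1B (0.17) and RBBP4 (0.09), all histone chaperone genes named after their values were seen. The 5 firing factors measured had MTBP at -0.24 and WDHD1 at -0.10, both overlapping.

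**Figure D4:**
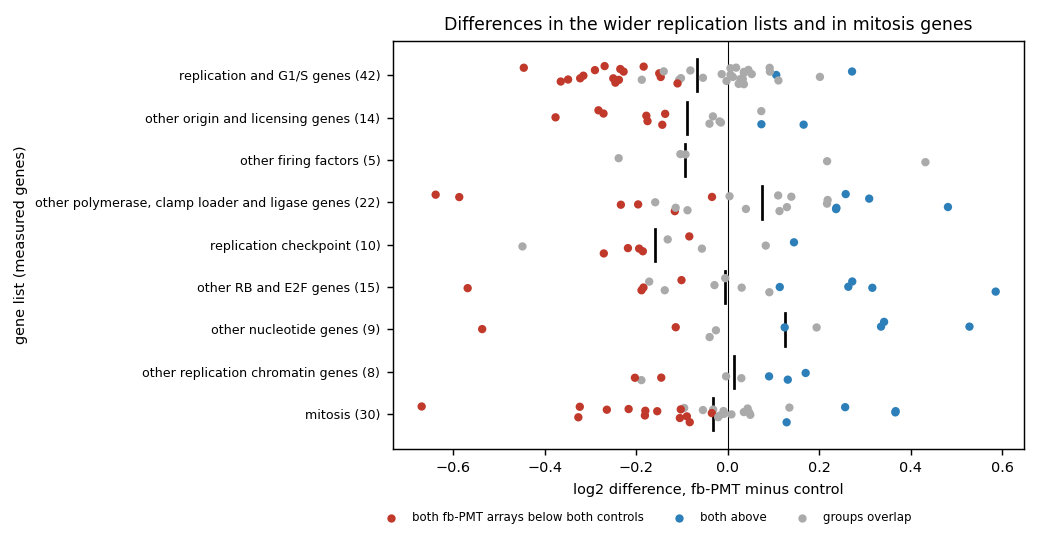
Each point is the log2 difference (fb-PMT minus control) of 1 gene, in rows by list with the number measured; red points have both fb-PMT arrays below both controls, blue points both above, grey points overlap, and the black bar is the list's median. The replication and G1/S genes reach no further than -0.45 and 0.27, while single genes of the wider lists lie past 0.5 in either direction.

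Mitosis genes peak later in the cell cycle. Of 30 genes in that list 20 were lower and 10 higher (66.7% lower, against 52.7% of all transcript clusters), with a median of -0.033. On both treated arrays 13 lay below both controls (43.3%, background 22.3%) and 4 above (13.3%, background 20.2%). Their differences ran from -0.67 to 0.37. CENPE, a kinesin of the kinetochore, was at -0.67 (SE 0.15, adjusted p = 0.268) and CDC25C, the phosphatase that opens mitosis, at 0.37 (adjusted p = 0.464). With an intensity trend 1 mitosis gene was lower at an adjusted p under 0.05, and 0 of the 42 replication genes were called. Under that setting 0.513% of all transcript clusters were called lower and 1.37% higher. Counts this small do not tell the 2 lists apart. The difference between the 2 lists was not tested.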

How the data were processed

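Total RNA of SUIT2 cells was measured on 4 single-colour whole-transcript arrays. The authors deposited log2 values per probe set, which RMA had corrected for background, normalized across arrays and summarised. The software was Transcriptome Analysis Console 4.0.1.36, as the submitters' processing notes name it. For the genome build and the RMA variant, the answer is not given in the sources used here. The table held 24351 probe sets, and the 2903 control probe sets were left out of the fit. Platform annotation gave 1 symbol for 17709 transcript clusters. A linear model was fitted per transcript cluster (lmFit, eBayes; limma 3.58.1, R 4.3.3; no intensity trend, no covariate; two-sided, Benjamini-Hochberg over all 21448, threshold 0.05), with 2 residual and 3.72 prior degrees of freedom. The median SE was 0.175, and the number of arrays limits precision. The fit was tested on simulated data, whose setting and outcome are not given here. The members and lists were chosen with earlier results of these data known. Values on every array were given for 13 members fixed by name and for the 2 of largest difference in each role group, 23 in all, and other members' values were named after they were seen. In the wider lists the rule took the 2 largest differences above the negative controls. Alternatives were a replicate block, variance trends, filters, scalings, array weights, the mean per symbol, another threshold and leaving out each array. Promoter windows came from RefSeq tables of GRCh38.p14.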

Additional observations from a re-analysis of the deposited data

How the results depend on the processing

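The counts of 0 members called in either direction held under all alternatives run. At an unadjusted p under 0.05 the count of lower members was 4 with an intensity trend, with or without robust variances. It was 2 without the lowest 30%, with the negative-control filter and with renewed quantile normalization. The share of all transcript clusters at this threshold is given here for the main fit alone (5.49% lower). These counts therefore have no background of their own. Under settings that kept all 4 arrays, members below both controls numbered 15 to 18 (36.6 to 42.9%, against 22.1 to 22.8% of all transcript clusters tested). The count of 15 came from the negative-control filter, which kept 41 members. Those above both numbered 1 to 3 (2.38 to 7.14%, against 20.2 to 27.3%), with 1 under renewed quantile normalization. Leaving out 1 array is a looser condition by construction. It gave 18 to 24 below (42.9 to 57.1%, against 36.3 to 39.2%) and 8 to 10 above (19 to 23.8%, against 33.4 to 34.6%). Without control replicate 2 the share below was 42.9% against 39.2%. The members' median stayed negative, from -0.10 to -0.046. Replicate numbers did not pair the arrays (correlation of deviations 0.042), and the replicate block gave 0 members called (TIPIN adjusted p = 0.428) and 1 transcript cluster higher in place of 21. Of the 23 genes with array values, 17 kept their sign in the 6 settings that can change a difference (the 2 scalings and the 4 left-out arrays). Renewed quantile normalization turned MCM2 to -0.0072 and CDT1 to -0.017. Leaving out 1 array in turn changed the sign of 6 genes, with ranges of -0.016 to 0.053 for MCM2, -0.018 to 0.20 for MCM6, -0.059 to 0.032 for MCM7, -0.32 to 0.11 for CCNE1, -0.061 to 0.12 for CCNE2 and -0.31 to 0.35 for CDT1. In the last 150 bases before the start the motif share was 29.2% of windows. It was 1.80% of all promoter windows and 2.75% of those whose GC content lay between the members' quartiles. A shorter stretch holds fewer matches by construction. The cause of the sign changes above was not tested.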
